A study of Mus musculus with 9 samples.

Results

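Ion channel genes were followed in cultured mouse macrophages that had been grown alone, beside sensory neurons, or with a low dose of TGF-β. The members were taken by gene symbol from the deposited expression table: every symbol of the potassium channel genes (Kcn), the voltage-gated calcium channel genes (Cacna, Cacnb and Cacng), the numbered sodium channel (Scn), chloride channel (Clcn) and hyperpolarisation-activated channel (Hcn) genes, the transient receptor potential genes of the Trpc, Trpm and Trpv groups, and Piezo1 and Piezo2. That gave 122 of the 24607 genes of the table. The rule uses symbols and no measured value, but it was chosen with earlier results of these data known. Of these, 118 coded for a channel pore or a channel's auxiliary subunit, and 4 had a matching symbol but code for no channel subunit (Trpc4ap, Kcnq1ot1, Kcnab3os and Trpc5os). The study measured RNA by sequencing in bone marrow-derived macrophages, which are grown from marrow precursors with M-CSF, here at 50 ng/ml. All 9 libraries came from mice labelled CX3CR1-gfp/+, which carry a green fluorescent protein gene at 1 copy of the fractalkine receptor gene, and none came from a mouse without that allele. The time label is 5 d in every library. The first group, monoculture, held 3 libraries of macrophages kept alone. The second, co-culture, held 3 libraries of macrophages kept with neurons from the dorsal root ganglia (DRG), where the cell bodies of sensory nerves lie. The third held 3 libraries of macrophages given TGF-β at 0.02 ng/ml. Every group was sorted on CD11b and CD64 before RNA extraction, and the series gives 3 different mice as the source of its triplicates. Whether the same 3 mice supplied each group, the mice's age, and the animals the DRG neurons came from are not given in the sources used here.

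Ion channels are membrane proteins that let particular ions pass down their gradients. In neurons they make and shape action potentials. Macrophages fire none, but they use potassium channels to hold a negative membrane voltage, which drives calcium entry, and they use chloride transporters and cation channels in lysosomes and endosomes as well as mechanically gated channels that respond to stretch and stiffness. Microglia, the macrophages of the brain, are known for an inward rectifier (Kcnj2), a delayed rectifier (Kcna3), the calcium-activated channel Kcnn4 and the tandem-pore channel Kcnk13, which sets their resting potential.

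Sequencing depth ranged from 46831914 to 308777042 reads assigned to genes per library, deepest in the first co-culture library. Values are normalized counts, that is, the reads of a gene scaled by a size factor that evens out depth between libraries, and 1 read was worth between 0.346 and 2.27 normalized counts. The sorting markers were at similar levels in co-culture and monoculture: the log2 difference was -0.12 ± 0.09 (standard error) for Itgam, which codes for CD11b (limma adjusted p = 0.387), and 0.05 ± 0.10 for Fcgr1, which codes for CD64 (adjusted p = 0.778). Of 8 macrophage markers tested, 1 rose and 1 fell in co-culture. Markers of other cell types differed more. The summed level of 12 fibroblast genes was 6956 to 10069.6 normalized counts in co-culture against 34.9 to 113.7 in monoculture and 24.0 to 104.9 with TGF-β, and the 10 tested were called higher, though only 2 of the 10 would have been tested without co-culture. Of 12 genes of Schwann and satellite glia, 9 rose and 2 fell, and among the 4 that passed without co-culture 1 rose and 2 fell. All 12 glial genes summed to 4787 to 5369 in co-culture, 6057 to 6940 in monoculture and 5784 to 6329 with TGF-β. Mbp, Erbb3 and Fabp7 had the highest levels in monoculture, and Mbp and Fabp7 were the 2 that fell. Without these 3, the sums were 666.5 to 901.6 in co-culture, 19.6 to 42.2 in monoculture and 31.8 to 63.4 with TGF-β. Sox10, the defining factor of that lineage, averaged 147 ± 62.0 in co-culture and 0.258 ± 0.447 in monoculture (SD, n = 3). Of 3 endothelial markers tested, 2 rose and 1 fell. The 15 neuronal genes in the table summed to 620 to 907 normalized counts in co-culture, 8768 to 10073 in monoculture and 8120 to 10758 with TGF-β. Those sums were mostly Uchl1, which fell. Without it, the other 14 summed to 187.8 to 344.8 in co-culture, 87.5 to 108.8 in monoculture and 54.6 to 70.4 with TGF-β. At 0 in every library of the group were 1, 4 and 6 of them. Of 5 neuronal markers tested 1 rose and 1 fell: Tubb3 rose from 27.0 ± 24.9 to 92.4 ± 8.03 (1.68 ± 0.41, adjusted p = 0.00562), and Uchl1 fell from 9141 ± 734 to 514 ± 72.0. Nefm, not tested, had 2.77, 14.1 and 31.9 in co-culture and was at 0 in the other groups. The part of these other cells in the channel values was not tested.

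Differences are log2 differences of normalized counts plus 10, with their standard error. They come from limma, a linear model fitted over all genes and all 9 libraries, with p-values adjusted over the 16328 genes that reached 10 normalized counts in at least 3 libraries. A gene is said to have risen or fallen when its adjusted p was under 0.05. Of the 122 members, 59 were tested and 63 were not. Among the 63, 49 never reached 10 in any library, and the highest single value was 33.4, for Trpm1 in the second monoculture library; 39 members were at 10 or more in all 9 libraries. Since a gene could enter the test through the co-culture libraries alone, the count of members that would pass without them is given as well: 48 of the 59 did.

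In co-culture 29 of the 59 tested members differed from monoculture, 14 higher and 15 lower, which is 49.2% of those tested. Over all genes tested the share was 30.8%, with 15.9% higher and 15.0% lower. Among the 14 that rose, 6 (Cacna1c, Cacna2d1, Kcnip3, Kcna2, Kcna6 and Piezo2) were tested only because co-culture lifted them over the level required, so their calls were helped by that choice; 5 more members entered in the same way and were not called. Among the 48 that passed without co-culture, 8 rose and 15 fell. The share of calls over all genes that passed without co-culture is not given here, so these counts have no background beside them. Without the second co-culture library 9 rose, since Kcna6, Kcnip3, Cacna1c and Kcna2 no longer reached the level required and Clcn5 lost its call; with the same genes tested, 13 rose. The median difference was 0.02 over the members tested and 0.03 over all genes tested. With TGF-β, 2 members rose (Kcnj10 and Trpm2) and 1 fell (Kcnq1), 5.08% of the 59, against 2.52% of all genes tested (1.13% higher and 1.39% lower). None rose without the third monoculture or the second TGF-β library, none fell without any 1 monoculture library or the first or second TGF-β library, and 3 fell without the third TGF-β library. Co-culture differed directly from TGF-β in 28 members, 13 higher and 15 lower, or 47.5%, against 25.3% of all genes tested (13.4% higher and 11.9% lower), and 7 of the 13 and all 15 passed without co-culture. Those higher numbered 8 without the second co-culture library and 7 without the third, and 11 in either case with the same genes tested. The comparisons with monoculture share the same 3 monoculture libraries, and the direct one shares libraries with both, so their values are given side by side and are not independent of each other.

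**Figure D1:**
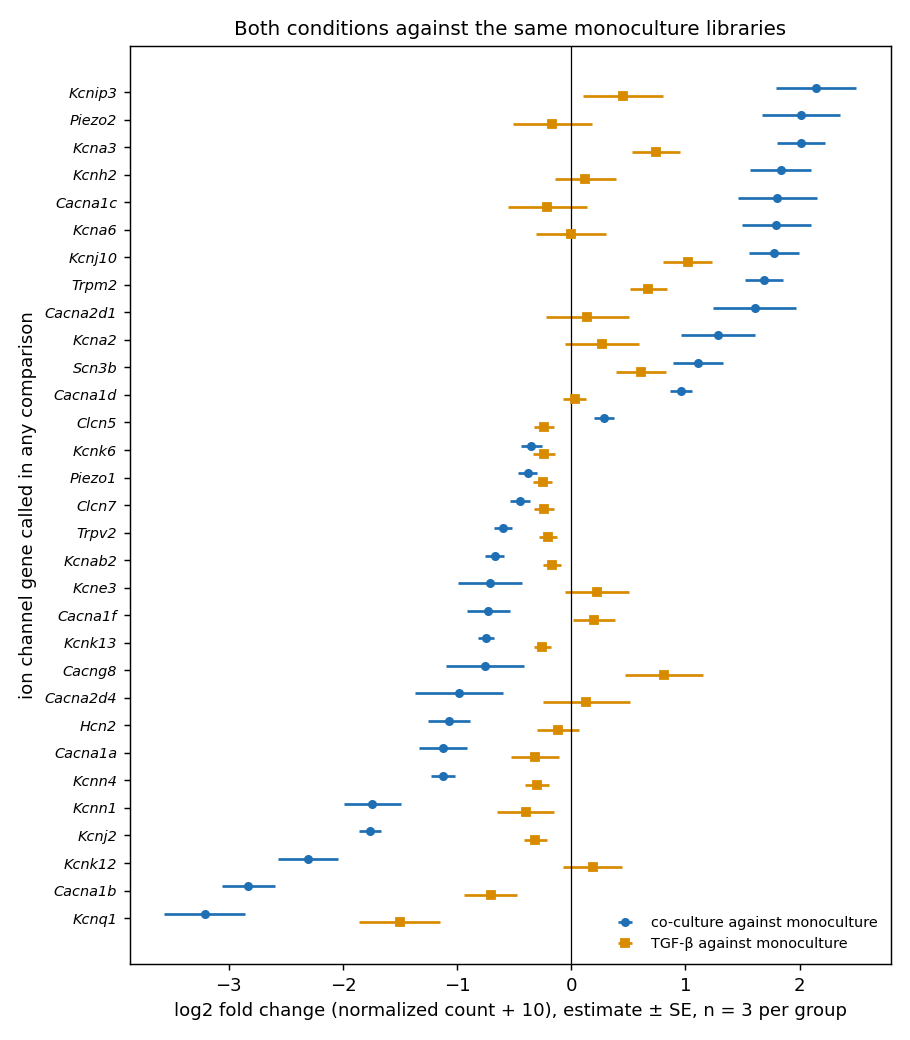
Log2 differences (of normalized counts plus 10, x axis) with standard errors for members called in any comparison (y axis; 1 is not shown), as circles for co-culture against monoculture and squares for TGF-β against the same monoculture libraries. The circles run from -3.21 for Kcnq1 to 2.01 for Kcna3 and Piezo2, with only Kcnip3 farther right, and the squares lie nearer to 0, with Kcnq1 at -1.50 and Kcnj10 at 1.02 the farthest of those called; the fitted values of Kcna6 and Kcnip3, at 0 in monoculture, depend on the 10 added.

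In monoculture the 15 that fell had a median level of 5164 normalized counts, and 9 of them lay above the median of all tested genes, 1072. The 8 that rose and passed without co-culture ranged from 58.2 to 7981, with 2 above 1072. The 6 others that rose lay between 0 and 7.67, which the level required for testing had fixed. Placed on a common scale, as normalized counts per kilobase of exon, the 118 channel-coding genes summed to 26481 ± 1186 in monoculture, 19244 ± 823 in co-culture and 23046 ± 1150 with TGF-β (SD, n = 3). The 10 most abundant channels of monoculture made up 86.9 to 87.6% of that sum in the monoculture libraries, 79.8 to 82.4% in the co-culture libraries, and 85.5 to 85.6% with TGF-β. These 10 were picked by their monoculture means, a choice that favours a higher share in the monoculture libraries. More channel genes had any read in co-culture, 93 to 100 per library, than in monoculture, 70 to 83, or with TGF-β, 68 to 79, and at 10 normalized counts or more there were 52 to 54, 43 to 47 and 46 to 49. Depth was greatest in a co-culture library, and its part in the first of these counts was not tested. Of all 24607 genes of the table, 20798 to 21648 per library had any read in co-culture. In monoculture 18754 to 20049 did, and with TGF-β 18410 to 19899, so wider detection in co-culture was not particular to channel genes. The numbers of all genes at 10 or more per library are not given here. In a bulk sample, fewer cells of a type and less RNA per cell cannot be told apart.

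**Figure D2:**
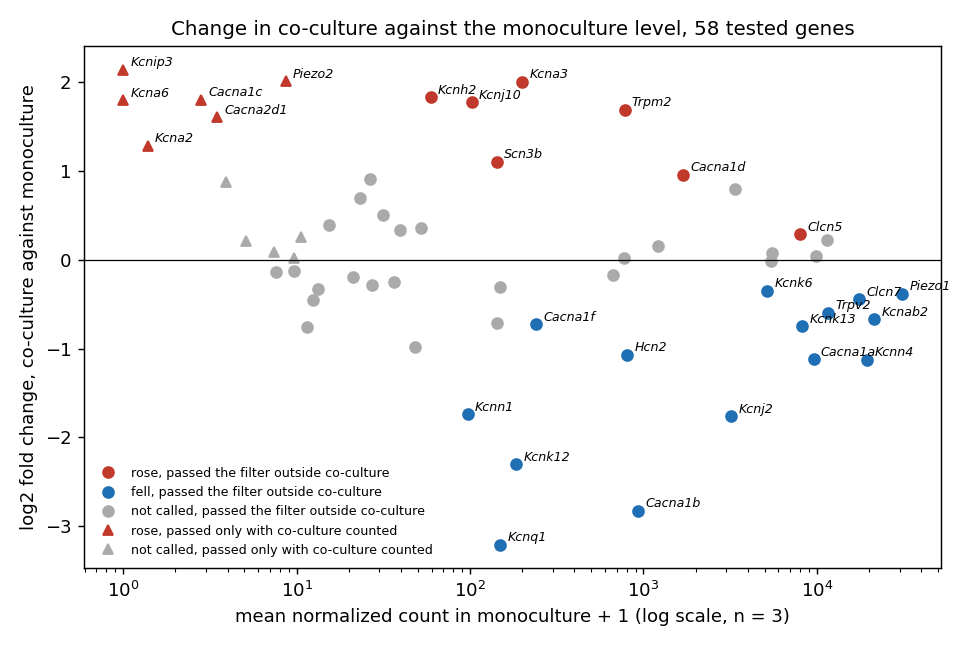
The mean monoculture level of tested members, 1 not shown, (normalized counts plus 1, log axis) against the log2 difference between co-culture and monoculture, as triangles where a member was tested only because co-culture counted and as circles otherwise. The members that fell spread up to 31034 normalized counts, and the red triangles stand for 7.67 normalized counts or less, where the choice of tested genes placed them.

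Potassium channels made up the largest group, with 61 members, of which 25 were tested. In co-culture 6 rose and 8 fell. The share over all genes tested was 30.8%, with 15.9% higher and 15.0% lower, for this and the family counts below. Per kilobase the 61 potassium channel genes summed to 12539 ± 1028 in monoculture, 7561 ± 66.5 in co-culture and 10752 ± 460.3 with TGF-β. Those that fell included the channels that led the group. Kcnn4 (ENSMUSG00000054342, chr7:24370263-24386690 in build mm10, plus strand) codes for the intermediate-conductance potassium channel that calcium opens through calmodulin. Its normalized counts were 19855, 22002 and 16710.1 in the 3 monoculture libraries, 8748, 9004 and 8888 in co-culture and 14373, 17672 and 15396 with TGF-β. Every co-culture library lay below every other library, and the TGF-β range overlapped the lower end of monoculture. Kcnn4 fell in co-culture against monoculture (-1.13 ± 0.10, limma adjusted p = 1.33e-06) and against TGF-β (-0.83 ± 0.10, adjusted p = 4.04e-05), and with TGF-β the difference from monoculture was -0.30 ± 0.10 (adjusted p = 0.168). On the per-kilobase scale it was level with Kcnab2 at the head of the monoculture order, at 3817 ± 520.3 and 3823 ± 286 (SD, n = 3), and took the fourth place in co-culture at 1736 ± 25.1. Its small-conductance relative Kcnn1 fell from a low level, 90.9, 100.1 and 96.9, to 19.7, 27.3 and 18.6 in co-culture (-1.74 ± 0.25, adjusted p = 9.57e-05).

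The inward rectifier Kcnj2 (ENSMUSG00000041695, chr11:111066164-111076821, plus strand) passes potassium near the resting voltage and holds the membrane there. It was measured at 3571, 3003 and 3027 normalized counts in monoculture, 993, 959.6 and 851 in co-culture and 2544, 2592 and 2557 with TGF-β. The 3 groups did not overlap, with co-culture lowest and TGF-β between. The fall in co-culture was -1.76 ± 0.10 against monoculture (limma adjusted p = 9.72e-09) and -1.45 ± 0.10 against TGF-β (adjusted p = 1.38e-07), while the TGF-β difference, -0.31 ± 0.10, was not called (adjusted p = 0.126; 0.0496 with DESeq2). Another inward rectifier moved the other way. Kcnj10 (ENSMUSG00000044708, chr1:172341210-172374085, plus strand), best known as the potassium-buffering channel of glia, stood at 120.2, 92.1 and 92.2 in monoculture, 338, 364 and 410.0 in co-culture and 158, 247 and 252 with TGF-β. All 3 TGF-β libraries were above all monoculture libraries and below all co-culture libraries. Kcnj10 rose in co-culture (1.78 ± 0.22, adjusted p = 1.99e-05) and with TGF-β (1.02 ± 0.22, adjusted p = 0.0226), and co-culture exceeded TGF-β by 0.76 ± 0.22 (adjusted p = 0.0195; lost in 6 of 27 alternatives, up to 0.0971). The TGF-β call was lost in 7 of 27 alternative analyses, whose adjusted p ranged from 4.36e-04 to 0.102. The glial markers, whose part was not tested, are given above for each group.

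The tandem-pore channels are open at rest and set the background potassium leak. Kcnk13 had 8187, 8736 and 7841 normalized counts in monoculture, 4902, 4840.0 and 4981 in co-culture and 6869.7, 7019 and 6877 with TGF-β, so that each group was apart from the others. It fell in co-culture against monoculture (-0.75 ± 0.07, limma adjusted p = 2.09e-06) and against TGF-β (-0.50 ± 0.07, adjusted p = 1.50e-04), and the TGF-β difference was -0.25 ± 0.07 (adjusted p = 0.0916; 0.0185 with DESeq2). Kcnk12, its close relative and possible partner in the same channel, had 172, 246 and 133 in monoculture, 36.4, 22.7 and 26.6 in co-culture and 217, 190.1 and 207 with TGF-β. Co-culture alone was low here, with a difference of -2.31 ± 0.26 from monoculture (adjusted p = 9.39e-06) and -2.49 ± 0.26 from TGF-β (adjusted p = 7.08e-06). Kcnk6, which is found in lysosomes as well as at the surface, had 5162, 5261 and 5068 in monoculture and 3837, 4219.6 and 4109.6 in co-culture (-0.35 ± 0.09, adjusted p = 0.0115). That call was lost without the first co-culture library (adjusted p = 0.0599), and Kcnk6 did not differ detectably between co-culture and TGF-β (-0.11 ± 0.09, adjusted p = 0.448).

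Voltage-gated potassium channels, which open on depolarisation, were scarce in monoculture and held 4 of the 6 potassium channel rises. Per kilobase the 21 genes summed to 169.8 ± 26.9 in monoculture, 506.6 ± 96.6 in co-culture and 217.1 ± 17.1 with TGF-β. Kcna3 alone gave 104.6 ± 29.5, 434 ± 92.0 and 174.2 ± 10.7 of these sums, so their differences were mostly those of 1 gene. Of the 21 genes, 9 were tested, and 1 fell. Kcna3 (ENSMUSG00000047959, chr3:107036169-107038070, plus strand), the delayed rectifier of lymphocytes and activated microglia, had 146, 258 and 193 normalized counts in monoculture, 941, 910.3 and 624 in co-culture and 309.6, 334 and 350.0 with TGF-β. The groups did not overlap, and TGF-β lay between the others. Kcna3 rose in co-culture against monoculture (2.01 ± 0.21, limma adjusted p = 4.65e-06) and against TGF-β (1.27 ± 0.21, adjusted p = 4.49e-04). With TGF-β the difference was 0.74 ± 0.21 and was not called (adjusted p = 0.0883), though DESeq2 called it (adjusted p = 0.0276). In the per-kilobase order of all channels Kcna3 reached the twelfth place in co-culture, at 434 ± 92.0. Kcnh2, a slowly closing channel known from the heart's repolarisation, was at 43.8, 72.5 and 58.1 in monoculture, 287, 232 and 181 in co-culture and 60.9, 78.7 and 52.3 with TGF-β. Co-culture was higher than both other groups, by 1.83 ± 0.27 (adjusted p = 1.01e-04) and 1.71 ± 0.27 (adjusted p = 2.68e-04), and the other two overlapped.

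The remaining rises among voltage-gated potassium channels were of genes at or near 0 outside co-culture. Kcna6 and Kcna2 were tested only because co-culture lifted them over the level required, and that choice helped their calls. Kcna6 had no read in any monoculture or TGF-β library and 75, 24 and 46 reads in co-culture, which is 26.0, 18.8 and 30.6 normalized counts. Against a floor of 3 reads over a group's 3 libraries it was at least 23.2-fold higher than in monoculture and at least 18.6-fold higher than with TGF-β (limma adjusted p = 3.98e-04 and 5.47e-04). Kcna2 had 0, 1.15 and 0 in monoculture, 17.3, 11.7 and 17.3 in co-culture and 6.01, 2.19 and 0 with TGF-β (1.29 ± 0.32 against monoculture, adjusted p = 0.00695), and its difference from TGF-β (adjusted p = 0.0319) was lost in 10 of 23 alternatives. Kcna1, not tested, was read 35, 11 and 16 times in the co-culture libraries and never elsewhere. Kcna1, Kcna2 and Kcna6 are known as channels of nerve axons, and Kcna1 and Kcna6 lie 61.9 kb apart on chromosome 6, as Kcna3 and Kcna2 lie 63.1 kb apart on chromosome 3. These low values stand beside the glial, fibroblast and neuronal markers given above, whose part in them was not tested.

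Kcnq1 (ENSMUSG00000009545, chr7:143106362-143427042, plus strand), a slow voltage-gated channel of heart and epithelia, was the voltage-gated member that fell. Its normalized counts were 141, 119.7 and 184 in monoculture, 0, 12.5 and 11.3 in co-culture and 31.6, 54.6 and 52.3 with TGF-β. The 3 groups were apart, with TGF-β between the others. It fell by 3.21 ± 0.35 on the log2 scale in co-culture (limma adjusted p = 7.33e-06) and by 1.50 ± 0.35 with TGF-β (adjusted p = 0.0403). The TGF-β call did not hold in 14 of 27 alternatives, with adjusted p between 0.0192 and 0.443. Against TGF-β, co-culture was lower by 1.71 ± 0.35 (adjusted p = 0.00246; 0.0602 with DESeq2). Kcnq1 contains the antisense RNA Kcnq1ot1 (chr7:143203458-143296549, minus strand), which was far more abundant and varied between libraries, from 1981, 3522 and 4635 in monoculture to 5294, 9264 and 3479 in co-culture (0.80 ± 0.47, adjusted p = 0.264). The sources used here do not say whether counting used strand. Without strand, reads in the stretch that the 2 genes share cannot be told apart. In the first co-culture library Kcnq1 had 0 reads and Kcnq1ot1 15280. The part of antisense reads in the Kcnq1 values was not tested.

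Auxiliary potassium channel subunits were led by Kcnab2, a cytoplasmic subunit of voltage-gated channels that also has the fold of an oxidoreductase. It fell from 21748, 22665 and 19563 normalized counts in monoculture to 13391, 13224 and 13448 in co-culture (-0.67 ± 0.08, limma adjusted p = 1.64e-05), with 18099.8, 18677 and 20084 with TGF-β (-0.17 ± 0.08 against monoculture, adjusted p = 0.352). The TGF-β values overlapped those of monoculture and the co-culture values overlapped neither. Kcnip3, a calcium-binding subunit also known as a transcriptional repressor, was read 62, 66 and 52 times in co-culture and never in monoculture, at least 33.2-fold more (adjusted p = 2.73e-04). Kcnip3 was tested only because of its co-culture values, and that choice helped its call. Kcne3, a single-pass subunit of voltage-gated channels, had 119, 198 and 107 in monoculture, 65.1, 76.6 and 99.7 in co-culture and 174, 199 and 120.4 with TGF-β. It was lower in co-culture than with TGF-β (-0.94 ± 0.28, adjusted p = 0.0243, lost in 8 of 27 alternatives) and did not pass against monoculture (-0.71 ± 0.28, adjusted p = 0.0717).

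The sequence just before the transcription start is shown for the potassium channels with large differences, 2 that rose (Kcna3 and Kcnj10) and 2 that fell (Kcnj2 and Kcnn4), chosen with their values known so that both directions can be read side by side. Each is the 250 bases upstream of the RefSeq start in build GRCm38.p6, on the plus strand, 5′ to 3′. Capitals mark CAGAC or its reverse complement GTCTG, core letters that SMAD proteins, the transcription factors of TGF-β signalling, can bind, and GAGGAA or its reverse complement TTCCTC, core letters of PU.1 and related ETS factors of macrophages; the motifs do not overlap each other. The windows are chr3:107035912-107036161 for Kcna3, chr1:172340960-172341209 for Kcnj10, chr11:111065914-111066163 for Kcnj2 and chr7:24370013-24370262 for Kcnn4.
Kcna3: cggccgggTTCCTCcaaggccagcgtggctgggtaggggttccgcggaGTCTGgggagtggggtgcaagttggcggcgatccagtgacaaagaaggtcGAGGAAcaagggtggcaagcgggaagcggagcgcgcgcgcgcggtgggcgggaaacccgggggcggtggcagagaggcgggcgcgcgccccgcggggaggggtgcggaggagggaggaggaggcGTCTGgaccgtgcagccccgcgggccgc
Kcnj10: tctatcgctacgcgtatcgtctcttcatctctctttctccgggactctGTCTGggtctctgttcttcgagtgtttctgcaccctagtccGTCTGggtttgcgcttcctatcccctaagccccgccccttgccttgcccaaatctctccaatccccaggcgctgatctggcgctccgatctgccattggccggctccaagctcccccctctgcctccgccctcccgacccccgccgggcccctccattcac
Kcnj2: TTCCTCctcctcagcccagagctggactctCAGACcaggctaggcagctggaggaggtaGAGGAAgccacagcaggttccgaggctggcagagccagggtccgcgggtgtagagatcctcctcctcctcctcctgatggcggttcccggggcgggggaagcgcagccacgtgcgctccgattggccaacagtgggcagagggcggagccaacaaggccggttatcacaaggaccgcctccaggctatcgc
Kcnn4: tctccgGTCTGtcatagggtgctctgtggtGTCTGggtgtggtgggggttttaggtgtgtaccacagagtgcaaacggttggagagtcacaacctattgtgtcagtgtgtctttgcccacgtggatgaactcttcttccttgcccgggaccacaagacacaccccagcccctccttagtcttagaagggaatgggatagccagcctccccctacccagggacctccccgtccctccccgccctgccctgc
The CAGAC or GTCTG letters occurred 2 times in Kcna3, 2 times in Kcnj10, 1 time in Kcnj2 and 2 times in Kcnn4, so they were present in genes of both directions. At least 1 such match was found in 42.2% of the 32851 promoter windows of that length in the RefSeq table and in 45.5% of the 134 windows of the 95 members that matched it. The GAGGAA or TTCCTC letters occurred 2 times each in Kcna3 and Kcnj2 and not in Kcnj10 or Kcnn4, with 23.3% of all windows and 17.9% of member windows holding them. The Kcna3 window was 74.4% G or C and that of Kcnn4 58.8%. A match of letters describes the sequence and is no measurement of binding.

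**Figure D3:**
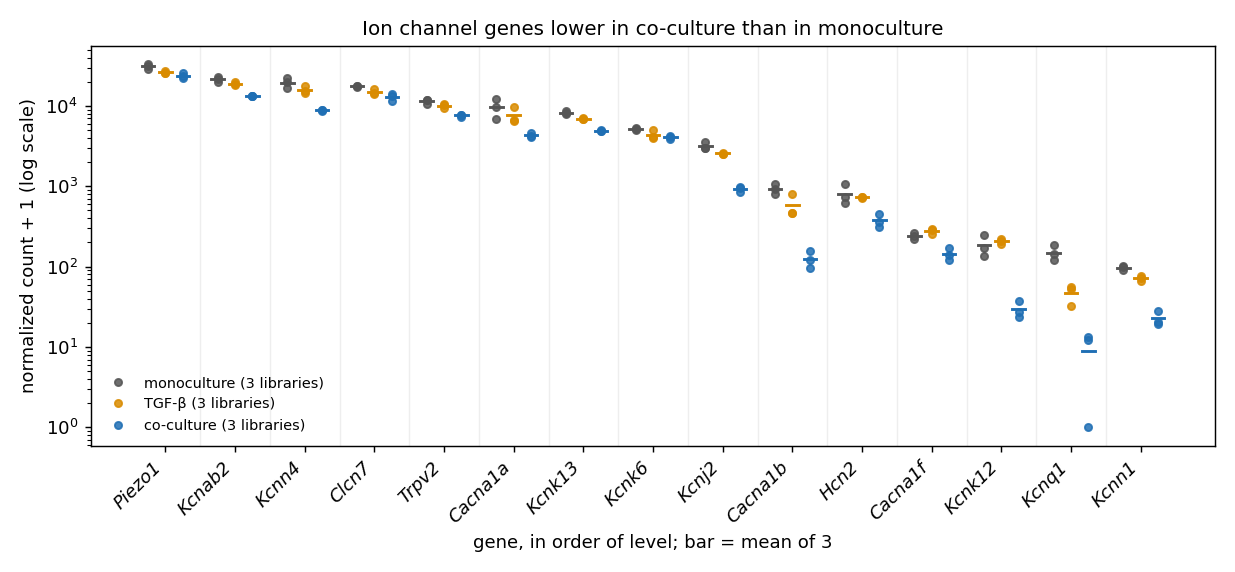
Normalized counts plus 1 (log axis) of the 15 members that fell in co-culture, in order of monoculture level, with the 3 libraries of each group as points and each mean as a short line. The co-culture points of Kcnn4, Kcnj2 and Kcnk13 lie below all other points, and those of Kcnq1 run from 0 to 12.5.

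Of 18 voltage-gated calcium channel genes 12 were tested, and 3 rose and 3 fell in co-culture, where 30.8% of all genes tested were called. The pore-forming genes moved in both directions. Cacna1a, the pore of the P/Q-type channel of nerve terminals, was the most abundant, at 6964, 9739 and 12034 normalized counts in monoculture, 4236, 4548 and 4086 in co-culture and 6437, 6623 and 9826 with TGF-β. Its monoculture libraries were spread widely but none overlapped co-culture (-1.12 ± 0.21, limma adjusted p = 0.00256). It was also lower in co-culture than with TGF-β (-0.80 ± 0.21, adjusted p = 0.0199), a call lost without any 1 co-culture library, with adjusted p between 0.0629 and 0.0822. Cacna1b, the pore of the N-type channel of nerve terminals, had 919, 797 and 1079 in monoculture, 94.9, 120.3 and 157 in co-culture and 469, 468 and 811 with TGF-β. Every co-culture value was far below the rest, with a difference of -2.83 ± 0.23 from monoculture (adjusted p = 3.78e-07) and -2.12 ± 0.23 from TGF-β (adjusted p = 1.02e-05). Its TGF-β difference, -0.71 ± 0.23 (adjusted p = 0.141), passed when the third TGF-β library was left out (adjusted p = 0.0200). Cacna1f, an L-type pore known from photoreceptors, fell from 259.8, 241 and 221 to 139.6, 169 and 119 (-0.73 ± 0.19, adjusted p = 0.00847).

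Another L-type pore gene rose. Cacna1d, whose channel opens at lower voltage than other L-type channels, had 1637, 1623 and 1828 normalized counts in monoculture, 3447, 3326 and 3151 in co-culture and 1699, 1558 and 1948 with TGF-β. The co-culture values lay above all others, which overlapped each other (0.96 ± 0.10 against monoculture, limma adjusted p = 4.50e-06; 0.03 ± 0.10 for TGF-β). Cacna1c, the L-type pore of heart and smooth muscle, was read 58, 36 and 71 times in co-culture, 7 times in 1 monoculture library and never with TGF-β. It rose in co-culture (1.80 ± 0.35, adjusted p = 0.00105) and was at least 23.6-fold higher than with TGF-β. Both Cacna1c and Cacna2d1 were tested only because co-culture lifted them over the level required, and that choice helped their calls. Cacna2d1, an extracellular subunit that carries the pores to the surface, rose from 3.25, 3.45 and 0.775 to 23.6, 21.1 and 41.9 (1.61 ± 0.36, adjusted p = 0.00352). Its relative Cacna2d4 was at 52.0, 39.1 and 51.1 in monoculture, 31.5, 16.4 and 12.0 in co-culture and 33.8, 105 and 38.6 with TGF-β, and was called only for co-culture against TGF-β (-1.12 ± 0.38, adjusted p = 0.0472), a call lost in 18 of 27 alternatives. Cacng8, a subunit that also accompanies glutamate receptors, was lower in co-culture than with TGF-β (1.73, 2.34 and 0.664 against 25.6, 30.6 and 18.2, -1.57 ± 0.34, adjusted p = 0.00357). It was tested only through the TGF-β libraries and the second monoculture library, and that choice helped its call. All 4 cytoplasmic Cacnb subunit genes were tested and none was called in co-culture; Cacnb1 differed by -0.31 ± 0.25 (adjusted p = 0.405) and Cacnb3 by 0.34 ± 0.35 (adjusted p = 0.523).

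Of the 11 sodium channel genes Scn3b, an auxiliary beta subunit, was tested and rose in co-culture. Scn3b rose from 120.2, 181 and 122 normalized counts to 356, 282 and 298 (1.11 ± 0.22, limma adjusted p = 0.00138), and the 198, 186 and 277 of TGF-β lay between (0.61 ± 0.22 against monoculture, adjusted p = 0.189). No pore gene of the family passed the level required. Scn7a, an atypical sodium channel known from glia and sensory ganglia, was read 26, 23 and 25 times in the co-culture libraries and in no other library, at least 13.4-fold more than in monoculture.

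The channels that define pain-sensing neurons were at the bottom of the scale. In co-culture Scn9a had 0.693, 0.781 and 1.33 normalized counts, Scn10a 0.346, 0 and 5.32 and Scn11a 1.73, 3.13 and 1.33. Monoculture, to which no neurons were added, gave 3.25, 4.60 and 3.10 for Scn10a and 0, 4.60 and 3.10 for Scn11a, and both ranges overlapped those of co-culture. The heat and capsaicin receptor Trpv1 was read 4, 1 and 3 times in co-culture and never elsewhere, and the cold receptor Trpm8 was not read in any co-culture library. None of these genes was tested.

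Among the transient receptor potential genes, 7 of 15 were tested, 1 rose and 1 fell in co-culture. That is near the 30.8% of all genes tested that were called there. Trpm2 (ENSMUSG00000009292, chr10:77907722-77970563, minus strand) codes for a calcium-permeable channel opened by ADP-ribose after oxidative stress. It had 799, 653 and 883 normalized counts in monoculture, 3088, 2538 and 2029.9 in co-culture and 1067, 1217 and 1468 with TGF-β. The 3 groups were apart, with TGF-β between. Trpm2 rose in co-culture (1.69 ± 0.16, limma adjusted p = 3.00e-06), and co-culture exceeded TGF-β by 1.01 ± 0.16 (adjusted p = 4.23e-04). The rise with TGF-β, 0.68 ± 0.16, passed narrowly (adjusted p = 0.0489) and was lost in 20 of 27 alternatives, over which adjusted p ran from 0.00454 to 0.191. Trpv2, a cation channel that macrophages use during phagocytosis, fell from 11965, 11985 and 10689 to 7750.5, 7794 and 7307 (-0.60 ± 0.08, adjusted p = 4.28e-05), with 9413, 10200.5 and 10488 with TGF-β. No group overlapped another, with TGF-β between the others (-0.20 ± 0.08 against monoculture, adjusted p = 0.236).

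The other named transient receptor potential genes were not called. Trpm7, a magnesium-permeable channel with a kinase domain, averaged 11469 ± 1057 in monoculture, 13397 ± 828 in co-culture and 11398 ± 1567 with TGF-β (SD, n = 3; 0.23 ± 0.11 for co-culture, limma adjusted p = 0.125). The osmotically and mechanically gated Trpv4 had 569.9, 775 and 954 in monoculture and 797, 797 and 698 in co-culture (0.02 ± 0.18, adjusted p = 0.942), and the calcium-activated Trpm4 differed by -0.17 ± 0.19 (adjusted p = 0.547). No Trpc channel gene was tested: Trpc1 had 1.04, 8.60 and 14.6 in co-culture and Trpc4 16.2, 2.30 and 11.6 in monoculture. Trpc6 was not analysed here. Trpc4ap, an adaptor of a ubiquitin ligase with a matching symbol, differed by 0.04 ± 0.07 (adjusted p = 0.717).

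**Figure D4:**
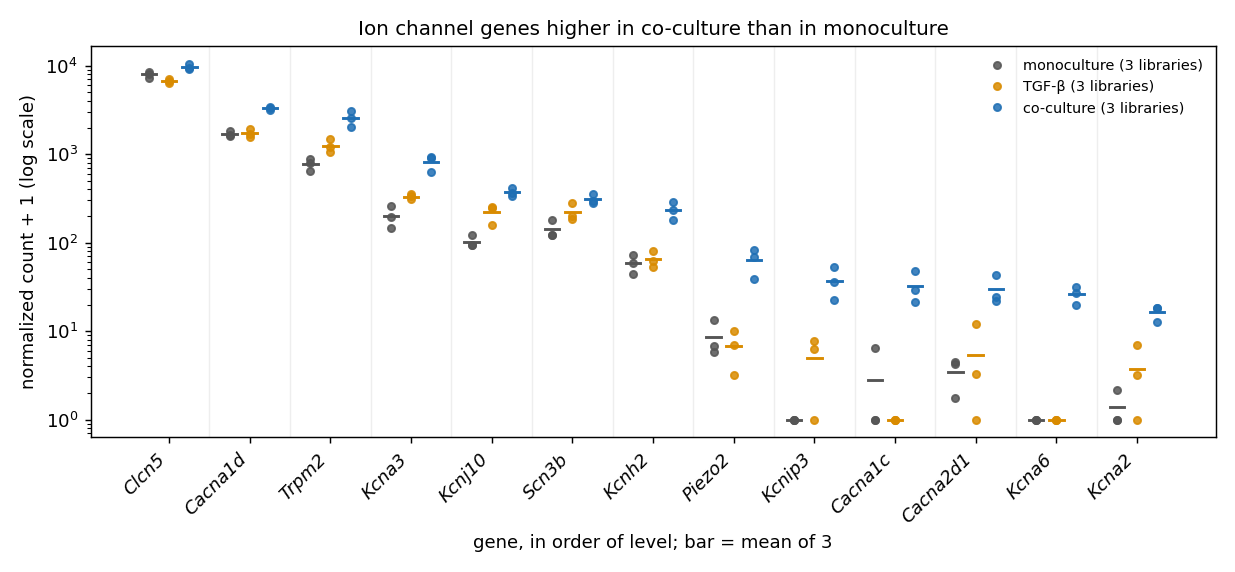
Normalized counts plus 1 (log axis) of 13 of the 14 members that rose in co-culture, in order of co-culture level, with the 3 libraries of each group as points and each mean as a short line. Kcna3 and Trpm2 show monoculture, TGF-β and co-culture as 3 separate steps, while Kcna6 has points above 0 in co-culture alone.

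The mechanically gated channels Piezo1 and Piezo2, which open when the membrane is stretched, went in opposite directions from very different levels. Piezo1, the form of vessels and blood cells, had 31298, 33120.5 and 28684 normalized counts in monoculture, 23498, 25707 and 22217 in co-culture and 25321, 25471 and 27329 with TGF-β. It fell in co-culture (-0.38 ± 0.09, limma adjusted p = 0.00355); co-culture and TGF-β overlapped (-0.13 ± 0.09, adjusted p = 0.308). Piezo2, the touch channel of sensory neurons, had 4.87, 5.76 and 12.4 in monoculture, 38.1, 81.3 and 68.4 in co-culture and 6.01, 2.19 and 9.09 with TGF-β. It rose against monoculture (2.01 ± 0.35, adjusted p = 4.26e-04) and against TGF-β (2.18 ± 0.35, adjusted p = 3.04e-04), all 3 co-culture values being above all others. Piezo2 was tested only because co-culture lifted it over the level required, and that choice helped these calls. Per kilobase Piezo2 stayed a small part of the pair: Piezo1 was at 2396 ± 178 and Piezo2 at 3.65 ± 1.29 in co-culture. Of the fibroblast and glial markers tested, 10 of 10 and 9 of 12 rose in the same libraries, and 2 glial markers fell. Most of these markers were also tested only because of co-culture, which helped their calls. Only 2 fibroblast and 4 glial markers passed without it: both fibroblast markers and 1 glial marker rose, and 2 glial markers fell. The neuronal gene Tubb3 rose and Uchl1 fell. The part of these other cells in the Piezo2 values was not tested.

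All 7 chloride channel genes were tested, and 1 rose and 1 fell in co-culture, near the 30.8% called over all genes tested. Clcn7, the chloride-proton exchanger of lysosomes, had 17779.6, 17051 and 17935 normalized counts in monoculture, 14016, 13171 and 11629 in co-culture and 14057, 14617 and 16062 with TGF-β. It fell in co-culture (-0.45 ± 0.09, limma adjusted p = 0.00118), and the highest co-culture value lay just under the lowest TGF-β value (-0.21 ± 0.09, adjusted p = 0.103). Clcn5, the exchanger of early endosomes, had 8529, 8109 and 7303 in monoculture, 9424, 10537 and 9224 in co-culture and 6768, 7111 and 6404 with TGF-β. The rise against TGF-β, 0.52 ± 0.09, was the firmer (adjusted p = 4.09e-04); that against monoculture, 0.29 ± 0.09 (adjusted p = 0.0207), was lost without the third monoculture library (adjusted p = 0.0831) or the second co-culture library (adjusted p = 0.117). The endosomal Clcn3 differed by -0.01 ± 0.08 (adjusted p = 0.929) and Clcn6 by 0.16 ± 0.11 (adjusted p = 0.336) between co-culture and monoculture.

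Of the hyperpolarisation-activated cation channels, the pacemaker channels of heart and neurons, 2 of 4 were tested. Hcn2 had 742, 1054 and 625 normalized counts in monoculture, 455, 359 and 311 in co-culture and 715, 729.9 and 734 with TGF-β. It was lower in co-culture than in either other group (-1.07 ± 0.19 against monoculture, limma adjusted p = 4.75e-04; -0.95 ± 0.19 against TGF-β, adjusted p = 0.00160), and TGF-β lay within the monoculture range. Hcn3 differed by 0.51 ± 0.34 (adjusted p = 0.305).

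**Figure D5:**
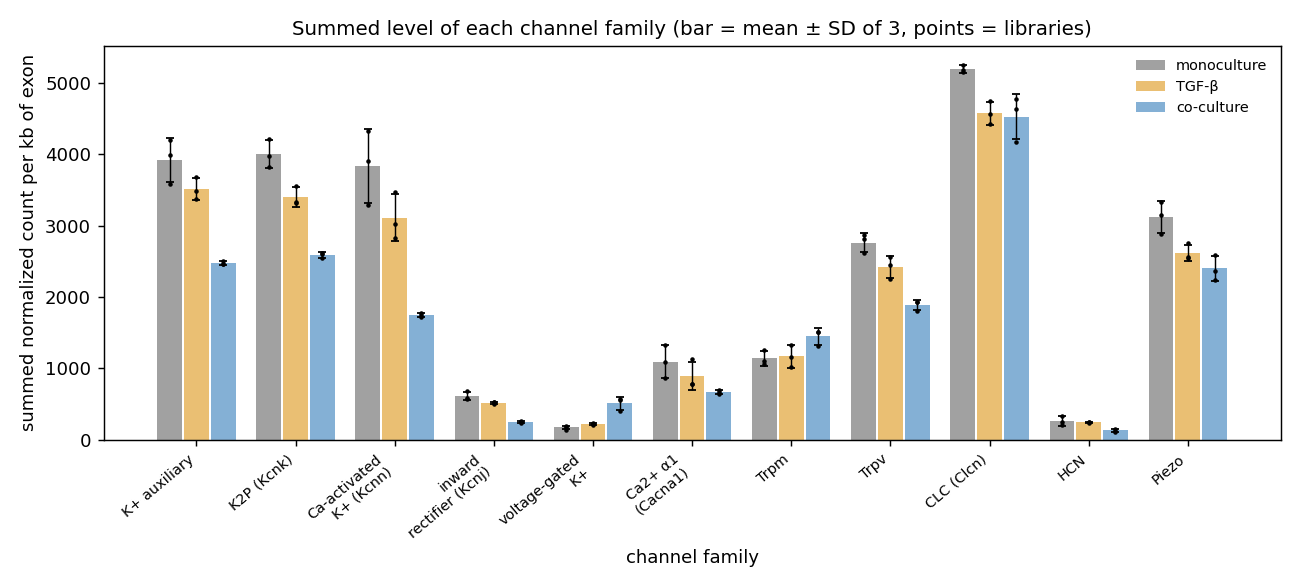
Summed normalized counts per kilobase of exon (y axis) for channel families (x axis; sodium channels not shown) and groups, with bars for the mean and SD of 3 libraries and points for each library. The calcium-activated, tandem-pore and auxiliary potassium channel bars are lowest in co-culture (1742, 2589 and 2474), while the voltage-gated potassium channels are highest there (506.6 ± 96.6 against 169.8 ± 26.9 in monoculture). Of these voltage-gated sums Kcna3 alone gave 434 in co-culture and 104.6 in monoculture.

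Per kilobase, the order of the channels was led by the same few genes in each group. In monoculture it ran Kcnab2 (3823 ± 286), Kcnn4 (3817 ± 520.3), Clcn7 (3324 ± 89.2) and Piezo1 (3124 ± 224), neighbours that lay within their spread of each other, then Kcnk13 (2652 ± 145) and Trpv2 (2574 ± 166), also within theirs. Co-culture began with Clcn7 (2445 ± 229), Piezo1 (2396 ± 178) and Kcnab2 (2394 ± 20.8), which did not differ beyond their spread, and went on with Kcnn4 (1736 ± 25.1), Trpv2 (1698 ± 60.1) and Kcnk13 (1577 ± 22.6). With TGF-β the first places were again those of Kcnab2 (3398 ± 183), Kcnn4 (3092 ± 330.1) and Clcn7 (2818 ± 196).

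Channels outside the symbol rule also moved in both directions. Of 53 such genes listed (proton, intracellular chloride, gap junction, store-operated, mitochondrial, lysosomal and other channels), 52 were in the table and 43 were tested, of which 12 rose and 11 fell in co-culture, 1 rose and 1 fell with TGF-β, and 10 were higher and 8 lower in co-culture than with TGF-β. Their median difference in co-culture was -0.07, against 0.03 over all genes tested. Over all genes tested, 30.8% were called for co-culture against monoculture, 2.52% for TGF-β against monoculture and 25.3% for co-culture against TGF-β. The voltage-gated proton channel Hvcn1, which supports the oxidative burst, averaged 3509.6 ± 300.3 normalized counts in monoculture, 6629 ± 1011 in co-culture and 4768 ± 202 with TGF-β (SD, n = 3). It rose in co-culture (0.91 ± 0.11, limma adjusted p = 1.45e-05) and with TGF-β (0.44 ± 0.11, adjusted p = 0.0461). Clic4, an intracellular chloride channel protein, fell in both, from 58658 ± 5589.8 to 24747 ± 1442 in co-culture and 42316 ± 640.2 with TGF-β (-1.24 ± 0.09, adjusted p = 1.02e-07; -0.47 ± 0.09, adjusted p = 0.0115). The gap junction gene Gja1, which fibroblasts and glia also express, rose from 477 ± 118 to 2904 ± 656 in co-culture (2.59 ± 0.20, adjusted p = 3.48e-07), and averaged 539 ± 105 with TGF-β. Mcu, the mitochondrial calcium uniporter, fell in co-culture (-0.79 ± 0.08, adjusted p = 3.82e-06).

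Ion pumps and exchangers build the gradients that channels use. Of 19 listed, 15 were tested, and 2 rose and 2 fell in co-culture, 1 rose and 1 fell with TGF-β. In co-culture 5 were higher and 2 lower than with TGF-β. The shares over all genes tested were 30.8%, 2.52% and 25.3% for these comparisons. The plasma membrane calcium pump Atp2b4 rose from 152 ± 43.4 normalized counts to 538 ± 80.0 in co-culture and 294 ± 34.9 with TGF-β (SD, n = 3; 1.79 ± 0.21, limma adjusted p = 1.16e-05; 0.94 ± 0.21, adjusted p = 0.0264). The sodium-calcium exchanger Slc8a1 rose in co-culture (0.74 ± 0.10, adjusted p = 4.60e-05). The potassium-chloride cotransporter Slc12a4 fell in co-culture (-0.78 ± 0.09, adjusted p = 1.15e-05) and with TGF-β (-0.42 ± 0.09, adjusted p = 0.0248), and the endoplasmic reticulum calcium pump Atp2a3 fell in co-culture (-0.66 ± 0.11, adjusted p = 3.25e-04).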

How the data were processed

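RNA was sequenced from 9 libraries of sorted mouse bone marrow-derived macrophages, 3 per group. Per the labels' protocols, the SMART-Seq Stranded kit was used on sorted-cell RNA. The authors deposited 1 signal value per gene and library. The genome build was mm10, per the submitters' processing notes, which also name STAR 2.7.3, bcl2fastq 2.20, R 3.6.1 and DESeq2 1.24.0 without their roles. How reads were counted, whether strand was used, and on which annotation are not given in the sources used here. In each column 100% of the deposited signal values were whole multiples (within 0.05) of the value of 1 read, so they were read as counts divided by a size factor, which preserves depth.

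Genes at 10 or more in at least 3 libraries (16328 of 24607) were tested on log2(value + 10) with limma 3.58.1 (trend, robust empirical Bayes, R 4.3.3), all 9 libraries in 1 fit, with Benjamini-Hochberg adjustment over all genes tested and calls at adjusted p under 0.05. A fold change on that scale understates the change of low genes. The fit was tested on counts simulated from the monoculture means, for co-culture against monoculture only. The outcome is not given here, and no conclusion is drawn from it. Exon lengths and coordinates came from GENCODE M21 (mm10); promoter sequences came from RefSeq. Bounds for genes at 0 divided the mean of the higher group by the level that 3 reads over the group at 0 would give. They cover counting error in the group at 0 only, and neither the counting error nor the spread of the higher group. The 27 alternatives included edgeR 4.0.16 and DESeq2 1.42.0 on the recovered reads, other filters, scalings and pseudocounts, a replicate block, and each library left out. Leaving out each library with the tested genes kept, and testing only genes that passed outside co-culture, were chosen after seeing the data. Each left-out library is therefore in the 27 both with genes chosen anew and with the tested genes kept. A call lost with 1 library left out can count as lost in both forms. Genes were named when they were on a set list, were among the 10 members with the largest rise or fall in a comparison, were 1 of the 2 most abundant of a family, or were at 0 in 1 group and at 10 or more throughout another; others were named after their values were seen, and 1 member, included in the counts, is not reported here. The members, the lists and these rules were chosen with earlier results of these data known. Nothing says whether the replicates of a group were cultured separately beyond their coming from different mice.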

Additional observations from a re-analysis of the deposited data

How the results depend on the processing

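Of 40 named members tested, 27 of the 29 calls for co-culture against monoculture, 21 of the 28 for co-culture against TGF-β and 0 of the 3 for TGF-β against monoculture held in every alternative that tested the gene (up to 27), and 0 changed direction. For co-culture against monoculture, 14 members rose in the main analysis, 9 to 15 with 1 library left out (13 to 15 with the same genes tested) and 8 with only genes that passed outside co-culture; the 15 that fell became 15 to 16 with 1 library left out and 17 with DESeq2. For co-culture against TGF-β, 13 were higher, 7 to 14 with 1 library left out (11 to 15 with the same genes tested) and 7 with genes that passed outside co-culture; the 15 lower became 12 to 15 over all alternatives. For TGF-β against monoculture, the 2 that rose became 3 with DESeq2, 1 with edgeR, with a pseudocount of 1, with TMM scaling, with no filter, with 10 required in every library of a group, and with only the 2 groups fitted, and 0 to 2 with 1 library left out. The 1 that fell became 0 with edgeR, a pseudocount of 1 or no filter, 2 with DESeq2, and 0 to 3 with 1 library left out. The cause was not tested, except that leaving out a co-culture library removed low genes from the test. Beyond the calls named above, Cacna2d1 in co-culture against TGF-β was lost without the third co-culture library (adjusted p = 0.0596).

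Deviations from the group means correlated from -0.147 to 0.372 between same-numbered libraries of different groups, and from -0.351 to 0.249 between differently numbered ones. With 3 libraries per group these values cannot settle whether the numbers mark pairs. The labels' numbers were not taken as pairs. With the replicate number as a block, 14 members rose and 15 fell in co-culture, 1 rose and 1 fell with TGF-β, and 13 were higher and 14 lower in co-culture than with TGF-β.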

Other observations

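Several channel genes lie close together in the genome, and neighbours did not always go the same way. Kcnj16 and Kcnj2 are 38.2 kb apart on chromosome 11, and Kcnj2 fell in co-culture while Kcnj16 was not called. Kcnj9, 11.9 kb from Kcnj10 on chromosome 1, was not tested: it had 0, 0 and 0 normalized counts in monoculture and 5.20, 10.2 and 2.66 in co-culture. Cacna1c and Cacna2d4 are 40.1 kb apart on chromosome 6, and Cacna1c rose while Cacna2d4 differed by -0.98 ± 0.38 (limma adjusted p = 0.0685).

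Among the members, 6 had no read in any monoculture or TGF-β library and at least 1 read in each co-culture library: Kcna1, Kcna6, Kcnk3, Kcnmb1, Scn7a and Trpv1. How many of all genes did so is not given here, so this count has no background beside it. Kcnk3, an acid-sensitive potassium leak channel, was read 8, 10 and 1 times and Kcnmb1, the smooth muscle subunit of the large-conductance channel, 6, 2 and 3 times in the 3 co-culture libraries. The co-culture libraries held 133804569 to 308777042 reads, those of the other groups 46831914 to 151572474. Cacng7, named as 1 of the 2 most abundant members of its family, had 5.20, 3.91 and 21.9 normalized counts in co-culture and was not tested. The large-conductance channel Kcnma1, not tested either, had 3.25, 0 and 0 in monoculture, 2.08, 0.781 and 0 in co-culture and 0 with TGF-β.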
